A study of Mus musculus with 3 samples.

Results

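The voltage-gated sodium channel genes Scn1a, Scn2a, Scn3a, Scn8a, Scn9a, Scn2b, and Scn3b were followed in GFP+ cells sorted from the neocortex (NCx) of mice at E16.5, P1, and P5. They were chosen by name and are 7 of the 31053 genes listed in the count files. All mice carried 1 Sst-Cre allele and the RCE reporter, in which Cre removes a stop cassette and leaves GFP on for good, so that cells that once used the Sst locus stay labeled after Sst has gone. Each stage was 1 library, made from pooled tissue, 6 animals in the E16.5 pool and 3 in each postnatal pool, with no treatment of the animals described. Tissue handling differed by stage. The P1 and P5 suspensions were cleared of myelin on Percoll, and P5 tissue was also digested with trypsin and DNaseI. Cells were read with droplet-based 3′ sequencing, which counts UMIs (molecular tags, each standing for 1 captured mRNA).

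Voltage-gated sodium channels carry the inward current that starts and propagates the action potential. Each channel is built around a large pore-forming alpha subunit (Scn1a, Scn2a, Scn3a, Scn8a, and Scn9a, which encode Nav1.1, Nav1.2, Nav1.3, Nav1.6, and Nav1.7), and smaller beta subunits (Scn2b and Scn3b) adjust gating and surface expression and bind adhesion molecules. In the developing brain, Scn3a is known as the embryonic alpha subunit and Scn8a as a later one that gathers at the axon initial segment, whereas Scn1a is best known for its role in the firing of adult interneurons. Scn9a is best known from peripheral sensory and sympathetic neurons.

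Cells with more than 700 genes and a mitochondrial share under 10% were kept, which left 3952 of 4478 E16.5 cells (88.3%), 2501 of 4440 P1 cells (56.3%), and 2980 of 3406 P5 cells (87.5%), with a median of 5577, 3293, and 3935.5 UMIs. The 3 pairs of libraries shared 1 to 6 cell barcodes. Nos1 cells had at least 1 UMI of Nos1, the neuronal nitric oxide synthase, and numbered 67, 434, and 547, from E16.5 to P5. Sst-high cells had at least 5 UMIs of somatostatin and no Nos1 and numbered 1920, 757, and 896. The third class, Lhx6 cells without Sst, had at least 1 UMI of Lhx6, a transcription factor of the medial ganglionic eminence lineage, and 0 of Sst, and numbered 776, 491, and 559. At P5, the median depth was 3073, 5542.5, and 3316 UMIs in these classes, and 14 cells were in both the Nos1 and the Lhx6 class (2 at E16.5 and 26 at P1).

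The classes were checked against marker genes. Npy, a neuropeptide of long-range projection (LRP) neurons, reached 12365, 24679, and 34619 CPM (counts per 1000000 UMIs of the class) in Nos1 cells at E16.5, P1, and P5, against 2405, 2134, and 1396 CPM in Sst-high cells. The 6 Nos1 markers (Nos1, Chodl, Npy, Lhx6, Gad1, and Gad2) summed to 13327, 28211, and 38840 CPM in Nos1 cells. In Sst-high cells they summed to 3440, 3614, and 2580 CPM. Apart from Npy, these markers were together lower in Nos1 cells at E16.5. Sst and Lhx6 markers (Sst, Lhx6, Sox6, Satb1, Gad1, Gad2, and Slc32a1) summed to 6874, 7744.5, and 6341 CPM in Nos1 cells. The sum was 6947, 5596, and 5582 CPM in Sst-high cells and 2093, 2463, and 2144 CPM in the third class. Excitatory neuron markers (Neurod2, Neurod6, Slc17a7, Slc17a6, and Tbr1) summed to 580.7 CPM in Nos1 cells at E16.5 and 153.8 CPM at P1, with 5 of 5 detected, but to 6.11 CPM at P5, where Slc17a6 was at 0. In Sst-high cells the sum was 1.81 to 7.15 CPM over the 3 stages, and in Lhx6 cells without Sst it was 8.59 to 25.4 CPM. The alpha subunit shares of Nos1 cells and their ratios to Sst-high cells at E16.5 are therefore also given without cells that hold a UMI of Neurod2, Neurod6, Slc17a7, or Slc17a6, which left 52, 414, and 544 Nos1 cells. Markers of microglia, endothelium, and red blood cells each summed to under 4 CPM in every class and stage, and astrocyte markers to at most 8.42 CPM. Markers of cells from the caudal ganglionic eminence or of Meis2 cells (Meis2, Sp8, Prox1, Htr3a, and Pax6) were higher in Nos1 cells, at 175.0, 60.9, and 6.62 CPM from E16.5 to P5, against 53.9, 10.9, and 1.01 CPM in Sst-high cells, with Sp8 and Htr3a at 0 in Nos1 cells at E16.5. Their part in the Nos1 values was not tested. Oligodendrocyte lineage markers summed to at most 52.5 CPM in the 3 classes, and Olig1 and Olig2 were at 0 in Nos1 cells. Stress and dissociation genes summed to 961 to 1259 CPM at E16.5, 867 to 1080 CPM at P1, and 607 to 800 CPM at P5 over the classes, and their part in the stage differences was not tested. Too few cells of these kinds were present to measure free RNA in a population that should lack the channels.

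With 1 library per stage, no test was possible between stages or between classes. The ranges in brackets are 95% intervals (exact Poisson for levels, exact conditional binomial for ratios, exact Clopper-Pearson for shares), which cover counting error only and not the spread between animals. Differences between stages cannot be told apart from differences between libraries or in tissue handling. "Past 2-fold" is said of a gene with at least 10 UMIs over both groups whose ratio, after 1 CPM was added to both levels, was at least 2 in either direction.

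Of the 5 alpha subunit genes, 4 are neighbors. They lie in 1 cluster on chromosome 2 (GRCm38), with Scn3a at chr2:65457118-65567627, Scn2a at chr2:65620771-65767447, Scn1a at chr2:66270778-66440840, and Scn9a at chr2:66480080-66634962. Scn2a is on the plus strand and the others on the minus strand. Scn8a lies apart at chr15:100869858-101045938, and Scn3b (chr9:40269217-40291618) and Scn2b (chr9:45117782-45130070) lie on chromosome 9. The antisense gene Gm13629 overlaps Scn9a and had 6, 19, and 82 UMIs in the kept cells of the 3 stages, from E16.5 to P5. Gm13595 overlaps Scn3a and had 60, 1, and 14 UMIs. The sources used here do not say whether strand was used in counting, so that reads in the overlaps may be uncertain.

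The 250 bases before the RefSeq transcription start (GRCm38.p6) are shown for Scn2a, Scn9a, and Scn1a, since these clustered genes gave the 3 patterns described below, a postnatal excess, an excess in Nos1 cells, and an excess in Lhx6 cells without Sst. An entry was found for 5 of the 7 genes (Scn3a and Scn3b had none), and the Scn8a and Scn2b windows overlap annotated transcripts and are not printed. The Scn2a window lies at chr2:65620519-65620768 on the plus strand, and Scn2a has a second start with a window at chr2:65668436-65668685. That second window is not printed and has a GC content of 53.2%. The Scn9a window lies at chr2:66634963-66635212 and the Scn1a window at chr2:66440838-66441087, both on the minus strand. The Scn1a window reaches a few bases into the annotated gene, which ends at chr2:66440840. The GC content of the printed windows is 29.6% (Scn2a), 54.4% (Scn9a), and 46.8% (Scn1a), against a median of 52.4% over all windows. Capitals mark E-boxes (CANNTG, the motif of basic helix-loop-helix factors, which reads the same on both strands). Each printed window holds 1, the second Scn2a window holds 0, and 66.2% of 32851 windows of this length hold at least 1.
Scn2a: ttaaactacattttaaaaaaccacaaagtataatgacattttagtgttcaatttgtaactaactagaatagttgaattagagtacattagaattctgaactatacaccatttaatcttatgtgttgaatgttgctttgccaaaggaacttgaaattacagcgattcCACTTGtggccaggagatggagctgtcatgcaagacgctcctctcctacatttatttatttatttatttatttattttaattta
Scn9a: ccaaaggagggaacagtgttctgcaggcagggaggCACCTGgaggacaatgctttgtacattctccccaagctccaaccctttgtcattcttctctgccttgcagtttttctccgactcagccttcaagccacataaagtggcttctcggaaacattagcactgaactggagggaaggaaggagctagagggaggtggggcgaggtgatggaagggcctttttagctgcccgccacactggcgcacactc
Scn1a: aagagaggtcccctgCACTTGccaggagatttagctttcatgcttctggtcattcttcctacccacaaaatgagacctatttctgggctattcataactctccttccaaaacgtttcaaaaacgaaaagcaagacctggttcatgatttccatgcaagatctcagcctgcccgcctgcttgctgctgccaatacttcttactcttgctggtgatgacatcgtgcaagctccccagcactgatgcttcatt

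The 5 alpha subunit genes together were higher at both postnatal stages. In Sst-high cells their summed level was 458.0 CPM at E16.5 (447–469), 906.4 CPM at P1 (879–934), and 865.7 CPM at P5 (840–892). Most of the difference thus lay between E16.5 and P1, at 1.98-fold (1.90–2.06), and P5 was at 0.955 times the P1 level (0.915–0.997). Nos1 cells held 479.7, 918.5, and 908.2 CPM at the 3 stages. Lhx6 cells without Sst held 399.5, 722.6, and 837.1 CPM. The P5 level was 1.89 times that of E16.5 in Sst-high cells (1.82–1.96), 1.89 times in Nos1 cells (1.67–2.15), and 2.10 times in Lhx6 cells without Sst (1.95–2.25). In Sst-high cells the ratio reached 2.05 as a mean of per-cell values and 2.02 without the 5% of cells with the most UMIs. Across all genes, the median log2 ratio of P1 over E16.5 in Sst-high cells was 0.16. The ratios given here were not corrected for that shift.

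**Figure D1:**
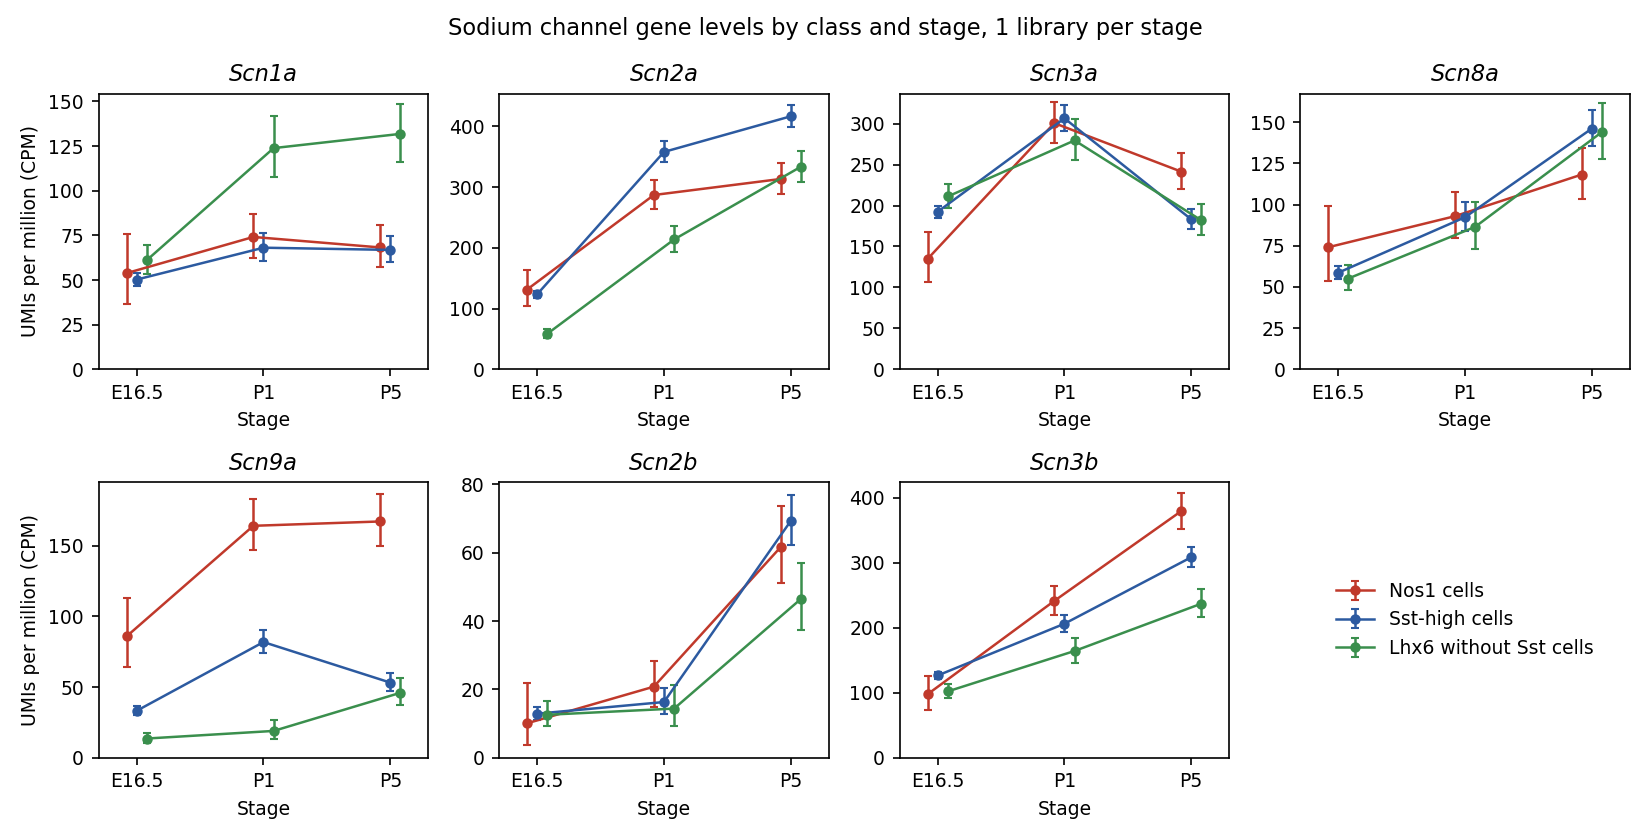
Level of each sodium channel gene (CPM, vertical axis) at E16.5, P1, and P5 in Nos1 cells (red), Sst-high cells (blue), and Lhx6 cells without Sst (green), with exact 95% Poisson intervals that cover counting error only and 1 library per stage. Scn9a was highest in Nos1 cells at every stage, Scn1a was highest in Lhx6 cells without Sst at P1 and P5, and Scn3a was highest at P1 in all 3 classes.

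Between E16.5 and P5, 4 of the 7 genes were past 2-fold higher in Sst-high cells (Scn2a, Scn8a, Scn2b, and Scn3b) and 0 past 2-fold lower, where 17.7% of the 13907 genes measured were past 2-fold higher. The median log2 ratio of the 7 genes was 1.28, against 0.04 over all genes. In Lhx6 cells without Sst, 6 of 7 were past 2-fold higher, all except Scn3a, against 19.9% of all genes. In Nos1 cells, 3 of 7 (Scn2a, Scn2b, and Scn3b) were past 2-fold higher, against 18.2% of all genes. These rest on the 67 Nos1 cells of E16.5, and with stricter classes (16 cells at E16.5) the Scn2a ratio was 1.45 (1.04–2.07), no longer past 2-fold. Over the alternatives the Nos1 ratio was 2.55 to 8.22 for Scn2b and 2.44 to 8.22 for Scn3b. Split by interval, 2 of 7 genes (Scn2a and Scn9a) were past 2-fold higher in Sst-high cells at P1 over E16.5 (12.2% of all genes), and 1 of 7 (Scn2b) at P5 over P1 (8.37% of all genes).

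Scn2a, which encodes the alpha subunit of the early axon initial segment, had the largest P5 to E16.5 ratio among the alpha genes in Sst-high cells and in Lhx6 cells without Sst. In Sst-high cells it was at 123.5 CPM at E16.5 (118–129), 357.8 CPM at P1 (341–375), and 416.4 CPM at P5 (399–435). P5 was 3.37 times the E16.5 level (3.16–3.59), and P1 already 2.90 times (2.71–3.1). P5 over P1 was 1.16 (1.09–1.24), but 0.833 when no limit was set on the mitochondrial share, so the direction of the later difference was not settled. Lifting that limit took in 1321 Sst-high cells from P1 in place of 757, with Scn2a at 503.9 CPM. In Lhx6 cells without Sst, Scn2a started lower, at 58.5 CPM, and stood at 213.8 CPM at P1 and 333.4 CPM at P5, 5.70 times the E16.5 level (4.89–6.66). In Nos1 cells it was at 131.3, 286.9, and 313.3 CPM. At P5 the order was Sst-high, Lhx6 without Sst, and Nos1 cells, and the last 2 had overlapping intervals.

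Scn3a, the gene of the embryonic channel Nav1.3, had its highest level at P1 in each class. In Sst-high cells it was at 192.4 CPM (185–200), 306.4 CPM (291–323), and 183.1 CPM (171–195) at E16.5, P1, and P5. The P5 level was 0.598 times that of P1 (0.549–0.650) and close to that of E16.5, at 0.952 times (0.882–1.03). Lhx6 cells without Sst held 211.0, 279.5, and 181.9 CPM. Nos1 cells differed at the first and last stage, with 134.6 CPM at E16.5 (107–168), 300.6 CPM at P1 (277–326), and 241.4 CPM at P5 (220–264). The P5 to P1 ratio was 0.803 in Nos1 cells (0.710–0.908) and 0.651 in Lhx6 cells without Sst (0.566–0.747).

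Scn8a encodes Nav1.6, the main alpha subunit of mature initial segments and nodes. Its level was higher at each later stage in all 3 classes, although in Nos1 cells the intervals of neighboring stages overlapped. In Sst-high cells it was at 58.6 CPM (54.7–62.7), 92.3 CPM (83.7–101), and 146.1 CPM (136–157), a P5 to E16.5 ratio of 2.49 (2.25–2.76). Lhx6 cells without Sst held nearly the same levels, 55.1, 86.4, and 144.0 CPM. Nos1 cells held 74.1, 92.9, and 118.2 CPM, with a ratio of 1.60 (1.15–2.26) that was 1.08 with stricter classes (0.661–1.86) and 2.67 after thinning to 2000 UMIs (1.18–7.44). The intervals of the 3 classes overlapped at P1, and those of Nos1 and Sst-high cells were apart at P5.

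The beta subunit genes were also highest at P5. Scn2b, whose product is disulfide-linked to the alpha subunit, was at 12.9 CPM (11.1–14.9) and 16.3 CPM (12.8–20.5) at E16.5 and P1 in Sst-high cells and at 69.3 CPM (62.2–77.0) at P5. That is 5.37 times the E16.5 level (4.48–6.45) and 4.25 times the P1 level (3.30–5.53). Nos1 cells held 10.1, 20.8, and 61.6 CPM, with 6 UMIs at E16.5, and Lhx6 cells without Sst held 12.6, 14.4, and 46.5 CPM. In all 3 classes the E16.5 and P1 intervals overlapped and P5 stood above both. Scn3b, whose product binds the alpha subunit without a covalent link, was higher than Scn2b at every stage in each class. Its level was 126.5, 206.1, and 308.2 CPM in Sst-high cells, 97.6, 241.2, and 379.0 CPM in Nos1 cells, and 102.1, 164.2, and 236.9 CPM in Lhx6 cells without Sst. At P5, Nos1 cells were highest, then Sst-high cells, then Lhx6 cells without Sst, and no 2 intervals overlapped. Scn2a and Scn3b are also in the developmental gene module that the study drew from these cells, which is not independent of their stage difference.

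The makeup of the alpha subunit pool was compared as the share of each gene among alpha subunit UMIs, a measure that does not depend on the class total. The coding lengths of these genes differ little, from 1947 codons (Scn3a) to 2009 (Scn1a), and a 3′ count takes 1 UMI per captured transcript whatever its length. Genes may still differ in how well their 3′ ends are captured. In Sst-high cells, the Scn3a share was 42.0% (40.8–43.2), 33.8% (32.4–35.3), and 21.2% (19.9–22.4) in the order of the stages, a difference of -20.8 percentage points from E16.5 to P5. The Scn2a share was 27.0% (25.9–28.1), 39.5% (38.0–41.0), and 48.1% (46.6–49.6). In these summed UMIs the order of the pair thus differed between E16.5 and P1. A share can be lower without a lower level. In these cells the Scn3a level was 192.4, 306.4, and 183.1 CPM, and that of Scn2a 123.5, 357.8, and 416.4 CPM. The lower Scn3a share at P5 thus came with a Scn3a level close to that of E16.5 and a higher Scn2a level. Per codon, the Scn3a share was 42.6% at E16.5 and 21.6% at P5.

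The same difference in shares was wider in Lhx6 cells without Sst. In Nos1 cells, the intervals of the Scn3a share at E16.5 and P5 overlapped. In Lhx6 cells without Sst, the Scn3a share was 52.8% (50.3–55.4), 38.7% (36.0–41.4), and 21.7% (19.8–23.8), whereas Scn2a made up 14.7%, 29.6%, and 39.8%. Here Scn3a still led at P1, a stage at which Scn2a already led in Sst-high cells. In Nos1 cells, the Scn3a share was 28.1% (22.9–33.7), 32.7% (30.6–34.9), and 26.6% (24.5–28.7), and that of Scn2a 27.4%, 31.2%, and 34.5%. Without cells with an excitatory marker UMI, the Nos1 shares were 24.4%, 33.6%, and 26.6% for Scn3a and 24.4%, 29.4%, and 34.4% for Scn2a. Scn9a held 17.9%, 17.9%, and 18.4% of alpha subunit UMIs in all Nos1 cells, but 24.4%, 19.4%, and 18.5% in those without an excitatory marker UMI, against 7.26%, 9.03%, and 6.14% in Sst-high cells and 3.42%, 2.63%, and 5.49% in Lhx6 cells without Sst. Scn1a made up 15.3%, 17.1%, and 15.8% in Lhx6 cells without Sst, about the same at each stage, and 7.52% to 11.2% in the other classes. Scn8a was at 10.1% to 17.2% in all of them.

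**Figure D2:**
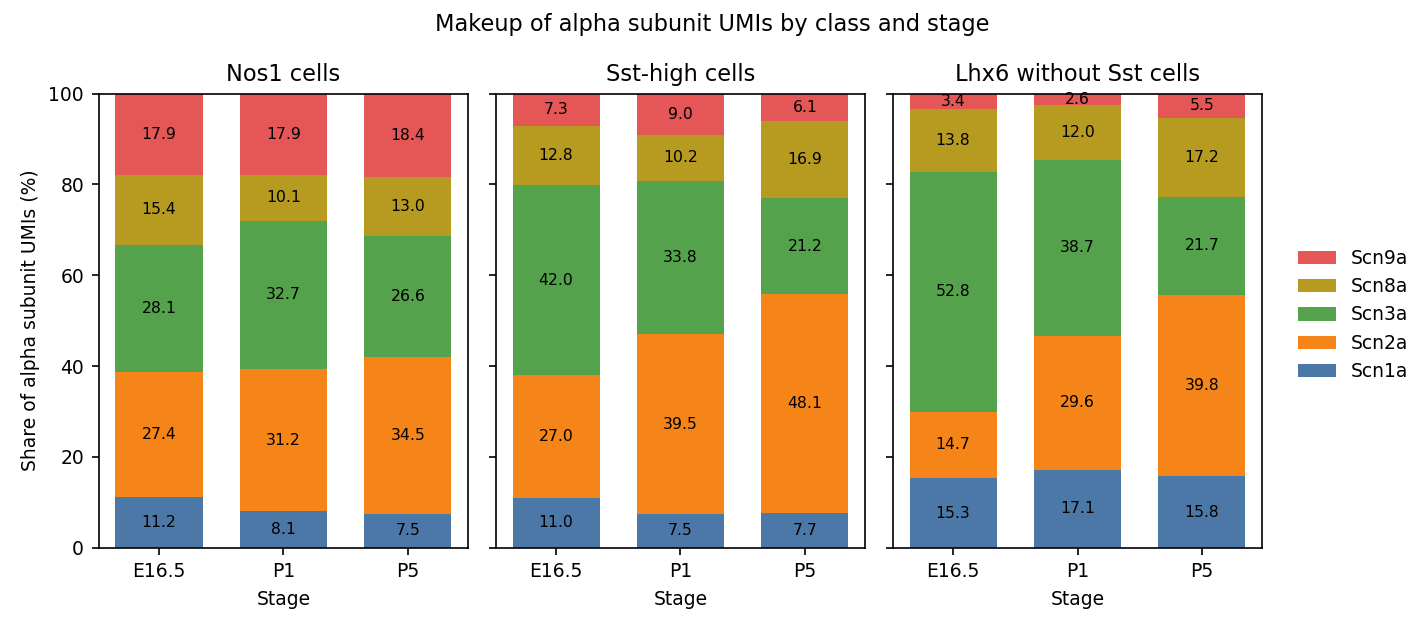
Share of each gene among the UMIs of the 5 alpha subunit genes (vertical axis, %) in Nos1 cells, Sst-high cells, and Lhx6 cells without Sst at E16.5, P1, and P5. The Scn3a share (green) was 42.0% at E16.5 and 21.2% at P5 in Sst-high cells, against 28.1% and 26.6% in Nos1 cells, where Scn9a (red) held 17.9% to 18.4% (24.4% at E16.5 without cells with an excitatory marker UMI, not drawn).

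The balance of Scn2a and Scn3a was also counted in cells rather than UMIs. Cells were thinned to 2000 UMIs each, and those with a UMI of Scn2a or Scn3a were sorted by which gene had more. In Sst-high cells, Scn2a was ahead in 29.1% of 819 E16.5 cells (26.0–32.3), 42.4% of 436 P1 cells (37.7–47.2), and 64.6% of 514 P5 cells (60.3–68.7). Scn3a was ahead in 61.8%, 43.1%, and 21.2% of the same cells, so that at P1 neither gene led when cells were counted. In Lhx6 cells without Sst, Scn2a was ahead in 12.6% of 293, 35.0% of 234, and 59.5% of 291 cells. In Nos1 cells, Scn2a was ahead in 40.0% of 25 (21.1–61.3), 42.1% of 233 (35.6–48.7), and 49.5% of 279 cells (43.4–55.5). At P5, the interval of Nos1 cells lay below that of Sst-high cells, whereas at P1 the 2 classes were level. Thinning left out 133 of 547 Nos1 cells, 110 of 896 Sst-high cells, and 112 of 559 Lhx6 cells without Sst at that stage. Cells with UMIs of both genes were common at this depth, at 139 of the 514 Sst-high cells at P5.

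**Figure D3:**
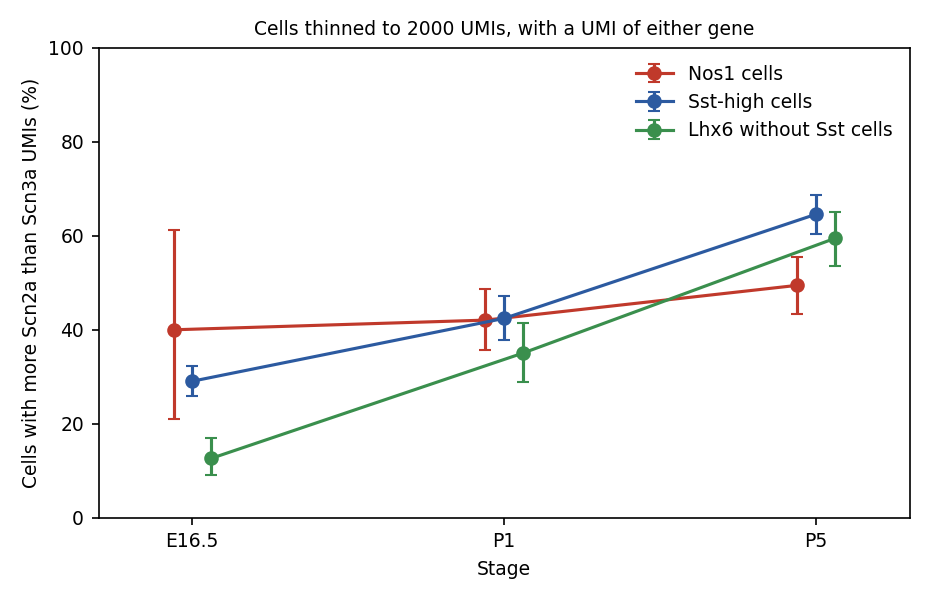
Percentage of cells with more Scn2a than Scn3a UMIs (vertical axis) among cells with a UMI of either gene, after thinning to 2000 UMIs, with exact 95% intervals; cells with equal counts stay in the denominator. Sst-high cells (blue) were at 29.1% at E16.5 and 64.6% at P5, Lhx6 cells without Sst (green) at 12.6% and 59.5%, and Nos1 cells (red) at 40.0% and 49.5%.

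Scn9a had the largest ratio of Nos1 to Sst-high cells among the 7 genes. At E16.5, however, the difference lay mainly in the Nos1 cells with Dach1. In Nos1 cells, Scn9a was at 85.8 CPM at E16.5 (63.9–113), 164.0 CPM at P1 (147–183), and 167.1 CPM at P5 (149–186). In Sst-high cells it was at 33.3 CPM (30.3–36.4), 81.8 CPM (73.8–90.5), and 53.2 CPM (47.0–60.0). Lhx6 cells without Sst held 13.6, 19.0, and 46.0 CPM. The Nos1 to Sst-high ratio was 2.58 (1.89–3.45), 2.00 (1.72–2.33), and 3.14 (2.66–3.71) at the 3 stages, and the ratio to Lhx6 cells without Sst was 6.29, 8.62, and 3.63. At E16.5, 38 of the 51 Scn9a UMIs of the Nos1 class were in 22 cells with a Dach1 UMI and no Lypd1, and the other 45 cells held 13 UMIs, at 29.7 CPM (15.8–50.9) and 0.894 times the Sst-high level (0.473–1.54). The study lists Scn9a among the genes of LRP neurons found on these same cells, so its excess here is not independent evidence of that.

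The Scn9a difference was measured again where the Nos1 class was in doubt. Without cells that held an excitatory marker UMI, Scn9a was at 123.9 CPM in 52 Nos1 cells at E16.5 and 3.74 times the Sst-high level (2.74–5.02), with 2.17 times at P1 (1.86–2.53) and 3.15 times at P5 (2.67–3.72). Over the 8 alternatives to the processing the ratio was 2.45 to 4.99 at E16.5, 1.71 to 2.48 at P1, and 2.79 to 3.58 at P5. Within Nos1 cells, P5 over E16.5 was 1.95 (1.45–2.67), but 1.35 without cells with an excitatory marker and 0.935 after thinning, so the direction of this difference was not settled. In cells thinned to 2000 UMIs, Scn9a was detected in 29.2% of 65 E16.5, 28.9% of 356 P1, and 28.0% of 414 P5 cells of the Nos1 class. The share was 6.28%, 16.4%, and 10.4% in Sst-high cells and 2.99%, 3.14%, and 8.95% in Lhx6 cells without Sst. Before thinning it was 40.3%, 48.4%, and 42.8% in Nos1 cells, 18.6%, 36.6%, and 22.8% in Sst-high cells, and 5.67%, 6.31%, and 14.5% in Lhx6 cells without Sst. Free RNA can add to all of these, and its part was not measured.

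Nos1 cells were also divided by Dach1 and Lypd1, markers of LRP subtypes, and both groups held Scn9a at P1 and P5. Nos1 cells with a Dach1 UMI and no Lypd1 were at 241.8 CPM at E16.5 (171–332, 38 UMIs in 22 cells), 208.1 CPM at P1 (167–256, 98 cells), and 173.1 CPM at P5 (101–277, 27 cells). Those with Lypd1 and no Dach1 were at 176.5 CPM at P1 (134–229, 55 cells) and 174.3 CPM at P5 (147–205, 221 cells), and the 1 such cell at E16.5 held 0 Scn9a UMIs in 5626. Their intervals overlapped at P1 and P5. The E16.5 cells with Dach1 were above the level of all Nos1 cells of that stage, and Scn9a made up 42.7% of their 89 alpha subunit UMIs (32.3–53.6). They stood at 7.27 times the Sst-high level (5.08–10.1). Of the other 45 Nos1 cells of E16.5, the 31 without an excitatory marker UMI held all 13 Scn9a UMIs, at 51.5 CPM (27.4–88.0) and 1.55 times the Sst-high level (0.818–2.67). Outside the Dach1 group the ratio was 1.85 at P1 (1.57–2.19, 336 cells) and 3.14 at P5 (2.65–3.71, 520 cells). This division was made after the values were seen.

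The other genes differed less between Nos1 and Sst-high cells. Of the 7 genes, 1 (Scn9a) was past 2-fold at E16.5, 0 at P1, where Scn9a was just short once 1 CPM was added, and 1 (Scn9a) at P5. Of all genes, 14.6%, 7.46%, and 11.1% were past 2-fold either way. The summed alpha subunit level was near equal at all 3 stages, at 1.05 (0.927–1.18), 1.01 (0.958–1.07), and 1.05 (0.992–1.11) times the Sst-high level. At P5, Nos1 cells had 0.752 times the Scn2a level (0.686–0.824), 0.809 times the Scn8a level (0.695–0.939), 1.32 times the Scn3a level (1.18–1.47), and 1.23 times the Scn3b level (1.12–1.34). Scn3a had been lower at E16.5, at 0.70 times (0.553–0.874), or 0.644 times without cells with an excitatory marker UMI (0.477–0.851). The other ratios at E16.5 without those cells were 1.13 for Scn1a, 1.01 for Scn2a, 1.38 for Scn8a, 0.958 for Scn2b, and 0.766 for Scn3b, and each interval included 1. For Scn1a and Scn2b at P5 the interval of the ratio included 1, at 0.829–1.25 and 0.717–1.10.

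**Figure D4:**
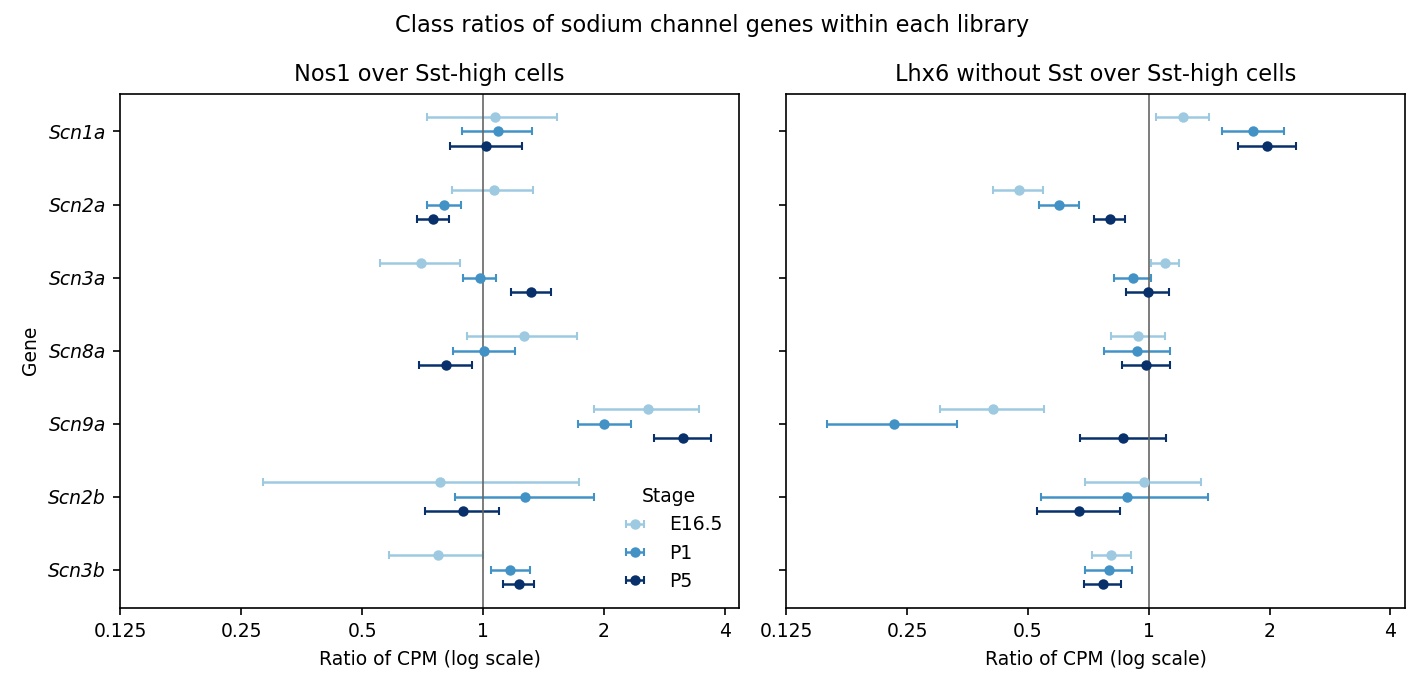
Ratio of CPM (horizontal axis, log scale) of Nos1 cells (left) and Lhx6 cells without Sst (right) to Sst-high cells of the same library for each of the 7 genes at E16.5 (light), P1 (middle), and P5 (dark), with exact conditional 95% intervals that cover counting error only. Scn9a was 2.58, 2.00, and 3.14 times higher in Nos1 cells, and Scn1a was 1.22, 1.82, and 1.97 times higher in Lhx6 cells without Sst.

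Scn1a was higher in Lhx6 cells without Sst than in both other classes at P1 and P5. It was at 61.2 CPM at E16.5 (53.5–69.5), 123.9 CPM at P1 (108–142), and 131.9 CPM at P5 (116–149) in these cells. Sst-high cells held 50.3, 68.1, and 66.9 CPM, and Nos1 cells 53.9, 74.1, and 68.3 CPM. The ratio to Sst-high cells was 1.22 (1.04–1.41), 1.82 (1.52–2.17), and 1.97 (1.67–2.33), and the P5 to E16.5 ratio was 2.16 (1.80–2.58) in Lhx6 cells without Sst but 1.33 (1.16–1.52) in Sst-high cells. Nos1 and Sst-high cells had overlapping intervals at every stage. In thinned cells, Scn1a was detected in 23.9% of 447 Lhx6 cells without Sst at P5, 12.6% of 786 Sst-high cells, and 13.5% of 414 Nos1 cells.

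Other genes were lower in Lhx6 cells without Sst, past 2-fold only before P5. Of the 7 genes, 2 were past 2-fold at E16.5 (Scn2a and Scn9a, both lower), 1 at P1 (Scn9a, lower), and 0 at P5, against 6.07%, 10.1%, and 7.14% of all genes. Scn2a stood at 0.474 (0.410–0.545), 0.598 (0.532–0.669), and 0.801 (0.732–0.875) times the Sst-high level, closer to it at each later stage. Scn9a stood at 0.410 (0.302–0.547), 0.232 (0.158–0.332), and 0.864 (0.674–1.10) times. Scn8a and Scn3a differed little from Sst-high cells at P5, at 0.986 (0.857–1.13) and 0.993 (0.877–1.12), and the summed alpha level was 0.967 times theirs (0.913–1.02). It had been 0.872 (0.824–0.922) at E16.5 and 0.797 (0.748–0.849) at P1. Scn3b was lower at all 3 stages, at 0.807, 0.797, and 0.769 times. Scn2b was level at E16.5, at 12.6 CPM against 12.9 CPM in Sst-high cells. At P5 it was lower, at 46.5 CPM (37.5–57.0) against 69.3 CPM (62.2–77.0), and its ratio was 0.576 to 0.823 over the alternatives.

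Cells gated on 2 UMIs of a subtype marker, without Nos1, were compared at P5. Tac1 cells (81), which express the substance P precursor, held 134.5 CPM of Scn1a (102–174), 257.2 CPM of Scn2a (211–310), 33.0 CPM of Scn9a (18.1–55.4), and 165.2 CPM of Scn3b (129–209). Pdyn cells (231), which express the dynorphin precursor, held 52.9 CPM of Scn1a (41.5–66.5), 443.7 CPM of Scn2a (409–480), 45.7 CPM of Scn9a (35.1–58.4), and 307.4 CPM of Scn3b (279–338). The intervals were apart for Scn1a, Scn2a, and Scn3b and overlapped for Scn9a. Scn8a was alike in both, at 160.5 CPM (125–203) and 156.6 CPM (136–179). Cbln4 cells (10) held 60359 UMIs in all, too few to place. Their Scn9a level was 99.4 CPM (36.5–216, 6 UMIs), an interval that overlapped those of Tac1 cells, Pdyn cells, and both Nos1 groups. Gates can share cells. Over these gates and those on Mef2c, Myh8, and Igfbpl1, 259 of 1766 gated cells at P5 were in 2 or more. The overlap of the Tac1 and Pdyn gates alone was not counted.

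**Figure D5:**
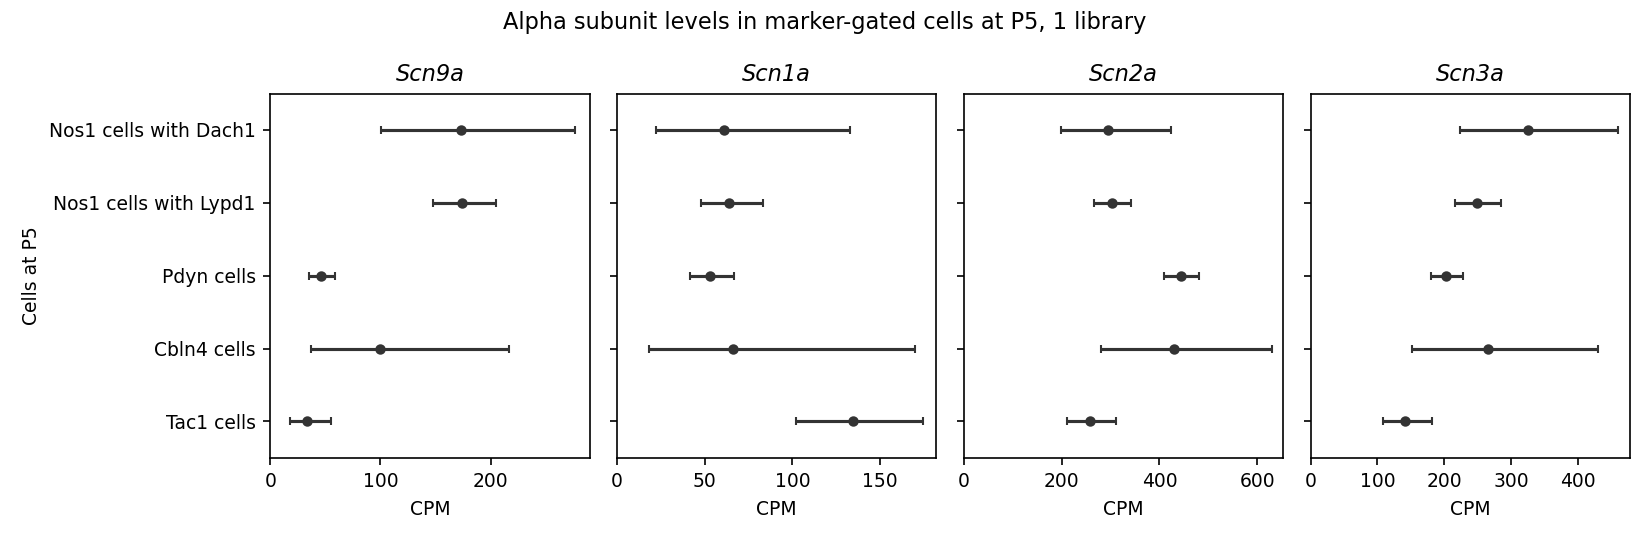
Level (CPM, horizontal axis) of Scn9a, Scn1a, Scn2a, and Scn3a at P5 in Nos1 cells with Dach1 (27 cells) or Lypd1 (221) and in Pdyn (231), Cbln4 (10), and Tac1 (81) cells without Nos1, with exact 95% Poisson intervals. Scn9a was at 173.1 and 174.3 CPM in both Nos1 groups, and Scn1a was highest in Tac1 cells at 134.5 CPM.

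Of 6 further sodium channel genes (Scn4b, Scn4a, Scn7a, Scn10a, Scn11a, and Nalcn) read from the same counts, 1 (Nalcn) had at least 10 UMIs over E16.5 and P5 in Sst-high cells and was past 2-fold higher at P5. Nalcn, the sodium leak channel, was at 16.2, 36.3, and 40.9 CPM in Sst-high cells, 2.52 times higher at P5 than at E16.5 (2.08–3.05). Scn4a and Scn4b had 0 UMIs, which allows a level of up to 0.122, 0.274, and 0.233 CPM in all kept cells at the 3 stages (3 UMIs), and Scn7a, Scn10a, and Scn11a had at most 3 UMIs in any class.

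Proteins that bind or place sodium channels were taken as a list of 14 genes. In Sst-high cells, 5 of 14 were past 2-fold higher at P5 over E16.5 and 0 past 2-fold lower, with a median log2 ratio of 0.73, against 17.7% of all genes past 2-fold higher and a median of 0.04. They were Cntn1 (5.99 times), a contactin that binds beta subunits, Fgf14 (4.05 times) and Fgf11 (2.31 times), fibroblast growth factor homologs that bind the alpha subunit tail, Sptbn4 (2.70 times), the spectrin of the initial segment, and Bace1 (2.17 times), a protease that cleaves beta subunits. The 3 genes with the highest levels, Ank3, Ank2, and Sptbn1, were at 518, 354, and 325 CPM at E16.5 and 451, 568, and 558 CPM at P5. Ank3 encodes ankyrin-G, which anchors sodium channels at the initial segment. It was at 723 CPM at P1 and thus, like Scn3a, highest there.

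Between Nos1 and Sst-high cells at P5, 3 of 14 were past 2-fold, all lower in Nos1 cells (6.6% of all genes were) and all from the fibroblast growth factor homologs. Fgf13 was at 64.7 CPM in Nos1 cells and 178 CPM in Sst-high cells, a ratio of 0.364 (0.300–0.438). Fgf14 was at 0.467 (0.329–0.648) and Fgf11 at 0.453 (0.287–0.692) times the Sst-high level. The fourth homolog, Fgf12, was at 0.621 times (0.546–0.705). Fgf13 had been similar in both classes at E16.5, at 143 and 122 CPM, and stood at 115 and 171 CPM at P1.

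Likeness was measured as Pearson's r of log2(CPM + 1) over the 9 sums of 3 classes in 3 libraries, among 4021 genes with a mean of at least 50 CPM. The 9 points share libraries and are not independent, so r is a description. Scn2a was most like Ndrg4 (r = 0.990), Plppr2 (0.988), and Ywhaz (0.983), Scn8a like Cdk5r2 (0.988), Atp2a2 (0.985), and Ubr4 (0.985), and Scn3b like Rcan3 (0.987), B4galnt1 (0.983), and Timp2 (0.980). Scn3a was most like Cadm1 (0.961), St8sia4 (0.953), and Mmp16 (0.942). Scn9a was most like Dbpht2 (0.964), Pde1a (0.960), and Chodl (0.959), the last of these a marker of LRP neurons. Scn1a was most like 2410002F23Rik (0.955), D430041D05Rik (0.951), and Sh3rf3 (0.923). Scn2b was not ranked because Nos1 cells held 6 UMIs at E16.5. Among the 7 genes, r over the same points was 0.89 for Scn2a with Scn8a and for Scn2b with Scn3b, whereas Scn1a with Scn9a gave -0.19 and Scn3a stayed at or below 0.39 with every other member.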

How the data were processed

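Single-cell RNA-seq was analysed for 3 libraries, 1 per stage. Reads had been mapped to GRCm38 by Cell Ranger, at version 3.1.0 for the E16.5 and P5 libraries and 3.0.2 for P1 per the file headers. The authors deposited the resulting UMI counts of 31053 genes in each cell, as whole numbers with no normalization. The 4478, 4440, and 3406 cells held 25638779, 15654107, and 13429055 UMIs. The software was Python 3.11.15 (numpy 2.4.6, scipy 1.17.1, pandas 2.3.3, and matplotlib 3.10.9 for plots). Within a library, the UMIs of each class were added up and divided by the class total to give CPM. No doublet caller was run, and the 5% of cells with the most UMIs were left out in an alternative. Cells were not treated as replicates, so no p-value was computed. A pseudocount of 1 CPM and a minimum of 10 UMIs applied to counts of genes past 2-fold. Only the 2-fold calls and the ratio intervals were tried on simulated counts. These were Poisson counts, so they cannot speak to the spread between libraries. The classes, thinning, and shares were not tried in this way. Coordinates come from GENCODE M21 (GRCm38) and sequences from RefSeq (GRCm38.p6), with protein sequence not used here. The 7 genes, the gene lists, and the classes were chosen with earlier results of these data known. All 7 genes are named, as are listed channel genes (apart from items not reported here), partners past 2-fold or among the 3 highest, and the 3 genes most like each member with at least 10 UMIs in each sum.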

Additional observations from a re-analysis of the deposited data

Results flagged for a closer look

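The levels of 2 genes differed between stages in opposite directions in 2 classes, with intervals of the ratios that lay on opposite sides of 1. These differences were not tested, since each stage was 1 library. Scn3a at P5 over E16.5 was 1.79 in Nos1 cells (1.41–2.3) and 0.862 in Lhx6 cells without Sst (0.759–0.977). The Nos1 cells of E16.5 numbered 67 and carried 580.7 CPM of excitatory markers, and without cells that held a UMI of such a marker the ratio was 1.94. Over all alternatives the ratio was 1.56 to 1.99 in Nos1 cells and 0.785 to 0.979 in Lhx6 cells without Sst. Scn9a at P5 over P1 was 0.650 in Sst-high cells (0.553–0.763) and 2.42 in Lhx6 cells without Sst (1.61–3.72). The alternatives gave 0.389 to 0.652 and 1.92 to 3.12, and the P1 value of Lhx6 cells without Sst rests on 33 UMIs.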

How the results depend on the processing

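In total, 91 ratios of the 7 genes were recomputed under 8 alternatives, and 629 of 726 values stayed within the interval of the reported value, 97 moved out of it, and 0 turned the direction of a ratio past 2-fold. The Scn3a share in Sst-high cells at P5 minus E16.5 was -23.8 points after thinning, -23.6 as a mean of per-cell values, -18.3 with stricter classes (3 Nos1 UMIs, 10 Sst UMIs, 2 Lhx6 UMIs), and -24.8 without the 5% of cells with the most UMIs. For the summed alpha subunit level, the log2 ratio of P5 over E16.5 in Sst-high cells was 0.92, 1.04 as a mean of per-cell values, and 1.01 without the deepest cells. As a mean of per-cell values, the log2 ratio at P5 was -0.070 for Nos1 over Sst-high cells (0.07 as reported) and -0.22 for Lhx6 cells without Sst over Sst-high cells (-0.05 as reported). Of 4223 genes past 2-fold at P5 over E16.5 in Sst-high cells, 2657 were counted with a pseudocount of 5 CPM. Of 1412 at P5 between Nos1 and Sst-high cells, the count was 657 with that pseudocount and 761 with at least 50 UMIs. Scn2a at P5 over P1 in Sst-high cells was 1.16 as reported, 0.833 with no limit on the mitochondrial share, and 1.39 under a stricter cell filter. For Scn9a at E16.5, the log2 ratio of Nos1 over Sst-high cells was 1.37 as reported and -0.16 without the Nos1 cells with Dach1. That alternative was chosen after seeing the data. Of the Nos1 cells it left, the 31 without an excitatory marker UMI stood at 1.55 times the Sst-high level (0.818–2.67). The causes were not tested. No paired analysis was possible because each stage has 1 library. Depth limits E16.5 Nos1 cells most, where the members held 6 to 80 UMIs each.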
